A study of Mus musculus with 9 samples.

Results

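The genes described here are 9 factors of nonsense-mediated decay (NMD) and of the exon-junction complex (EJC), *Upf1*, *Upf2*, *Upf3b*, *Smg1*, *Smg5*, *Smg6*, *Eif4a3*, *Magoh* and *Casc3*. They were chosen by name, and each was found by matching its symbol in GENCODE M1 to the gene identifiers of the deposited tables. All 9 are in both tables, among 13259 genes that the tables share. The data are RNA-seq of AML12 cells, a mouse hepatocyte line, collected 5 days after lentiviral infection with a short-hairpin RNA (shRNA). There were 3 libraries with a control hairpin, 3 with *Srrm2* shRNA 1 and 3 with *Srrm2* shRNA 2. *Srrm2* encodes a core scaffold protein of nuclear speckles (NSs) that is also a splicing factor. All groups had the same culture medium with dexamethasone, and nothing in the labels says that the libraries came from separate infections.

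NMD is the pathway that removes mRNAs whose stop codon lies in an unusual place, and it also limits the level of many normal mRNAs. When introns are removed in the nucleus, the spliceosome leaves an EJC just upstream of each new exon junction. A ribosome that terminates with an EJC still downstream triggers assembly of the UPF proteins, phosphorylation of UPF1 by the SMG1 kinase and decay of the mRNA. In mammals several NMD factors are encoded by mRNAs that are NMD targets themselves, through long 3′ UTRs or upstream reading frames.

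For each gene, the value used was the authors' mean normalised read count, 1 value over the control and shRNA 1 libraries in the first table and 1 over the control and shRNA 2 libraries in the second. There was no value per library and no value per group in the columns used, so no error could be computed and no test was run. The means of the first table summed to 6144608 and those of the second to 6393456, and the depth of a single library is unknown. The fall of *Srrm2* against control cells cannot be read from such pooled means. The study reports, from RT-qPCR and western blot, that both hairpins lowered *Srrm2* mRNA and protein. The mean of *Srrm2* was 3428 in the shRNA 1 table and 3759 in the shRNA 2 table, which after scaling is a log2 ratio of 0.065. All 6 hepatocyte markers looked up were listed in both tables, from *Apoa1* at 39.4 and 38.9 to *Ttr* at 2497 and 2640. Among them, *Alb* had 2151 and 1814 and *Hnf4a* had 1498 and 1624. Of 3 bile duct markers, *Krt7* (1351 and 1617) and *Krt19* (2851 and 2753) were listed and *Epcam* was not. Of the markers of other cells, 2 of 3 for macrophages were listed at means of 5.3 to 29.8, 2 of 3 for stellate cells or fibroblasts at 3.85 to 8.03, and 0 of 3 for endothelium. The part of such cells in the values was not tested.

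The 9 genes were expressed over a wide range. To compare genes, means were divided by the length of the annotated exons in kilobases (kb). *Smg1*, the kinase of UPF1, was highest, at 205 normalised counts per kb in the shRNA 1 table and 226 in the shRNA 2 table. *Eif4a3*, the DEAD-box protein that clamps the EJC onto RNA, came next with 189 and 209.8 per kb. *Upf1*, the helicase at the centre of NMD, had 176 and 194 per kb. These 3 genes stood in the same order in both tables. Their order is still not firm, because the values have no error and it depended on the length used, as given below.

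*Smg5*, an adaptor that binds phosphorylated UPF1, had 117 and 124 normalised counts per kb. *Casc3*, the EJC subunit that joins mainly in the cytoplasm, had 115 and 128 per kb, and it changed places with *Smg5* between the tables. *Magoh*, which with its partner Rbm8a locks Eif4a3 on the RNA, had 100.1 and 116 per kb. *Upf3b*, the link between the EJC and UPF2, had 97.3 and 92.2 per kb, below the range of *Magoh* in both tables. *Upf2*, which joins UPF3B to UPF1 and activates its helicase, had 56.8 and 61.2 per kb. *Smg6*, the endonuclease that cuts NMD targets near the stop codon, was lowest with 42.7 and 44.8 per kb.

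Part of this order rested on the length used. Per kb of the longest coding transcript, *Eif4a3* had 266 in the shRNA 1 table and stood above *Smg1* at 205, and *Upf3b* had 167 and rose from place 7 to place 4. The values of *Smg1*, *Upf1* and *Smg5* did not change, because GENCODE M1 gives each of them 1 transcript.

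**Figure D1:**
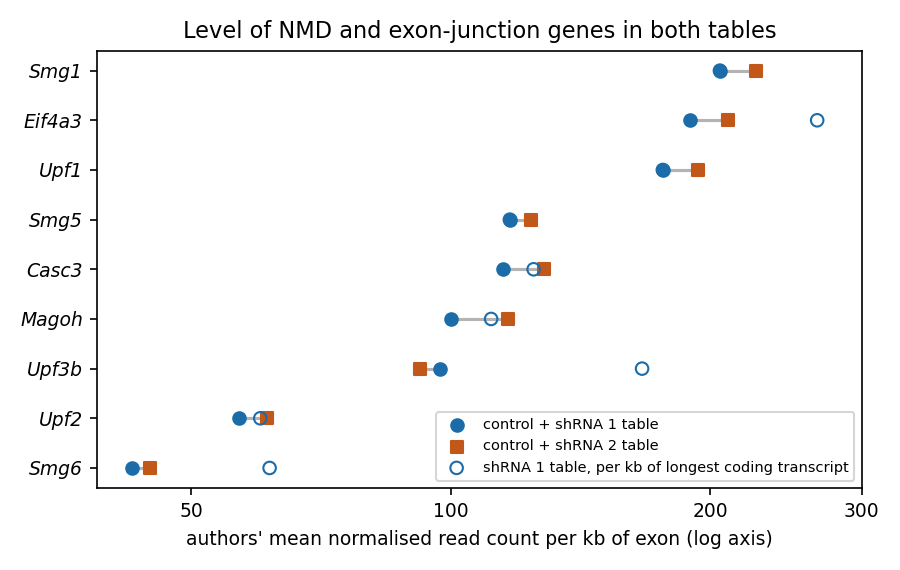
The authors' mean normalised read count per kb of exon (log axis) for the 9 genes in the control and shRNA 1 table (filled circles) and in the control and shRNA 2 table (squares), with the shRNA 1 value per kb of the longest coding transcript as open circles. *Smg1*, *Eif4a3* and *Upf1* lie between 176 and 226 in both tables and *Smg6* is lowest at 42.7 and 44.8, and *Upf3b* alone has its square to the left of its filled circle.

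The transcripts were examined for what could affect both the counts and NMD itself. The pair *Magoh* and *Magohb* encodes nearly the same protein, so reads could in principle fall on either gene. Aligned from the stop codon, their coding sequences were identical at 357 of 441 bases (81.0%), and the longest identical run was 17 bases. The window that holds this run is shown because it lets both genes be compared base by base where they match longest, with differing bases in capitals, from coding base 228 to 347 of *Magoh* and 234 to 353 of *Magohb* (GENCODE M1 transcripts on NCBIM37, 5′ to 3′ along the mRNA).
Magoh: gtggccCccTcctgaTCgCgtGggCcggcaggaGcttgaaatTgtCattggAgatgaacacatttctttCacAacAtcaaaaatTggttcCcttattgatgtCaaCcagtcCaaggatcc
Magohb: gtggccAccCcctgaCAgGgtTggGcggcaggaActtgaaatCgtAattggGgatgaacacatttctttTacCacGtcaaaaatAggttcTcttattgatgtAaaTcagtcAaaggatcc

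In this window 19 of 120 bases differ. No exonic 31-mer of *Magoh* occurs in the exons of *Magohb* (0 shared), and all 620 exonic 31-mers of *Magoh* lie at 1 place in the 22 chromosomes of NCBIM37. The same search gave 100% for *Smg5* and *Casc3*, and between 96.6% and 99.5% for *Upf1*, *Upf2*, *Upf3b* and *Smg6*. *Smg1* had 87.3% and *Eif4a3* had 73.9%. Only uniquely mapped pairs were counted, and how many reads of *Eif4a3* this removed was not tested.

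Overlap with other genes was limited. *Casc3* shares 494 exonic bases with genes on the opposite strand and 15 with a gene on its own strand, *Smg6* shares 243 and *Upf1* shares 66 with genes on the opposite strand, and the other 6 share 0. The libraries were described as strand-specific, and the strand setting of the counting is not given in the sources used here.

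The annotated 3′ UTRs of the 9 genes span a wide range of lengths. *Smg1* has 4223 bases, longer than in 96.3% of 12504 coding genes in both tables. *Casc3* has 1596, *Smg6* 1498, *Upf2* 1261, *Smg5* 1229 and *Upf1* 961 bases, all above the median of 843 bases for those coding genes. *Upf3b* has 834 bases, and the EJC genes *Eif4a3* and *Magoh* have only 180 and 148. An ATG upstream of the start codon is present in the 5′ UTR of 4 of the 9, namely *Upf2*, *Smg1*, *Smg5* and *Casc3*, against 46.5% of the coding genes (letters ATG in the transcript, in any frame). GENCODE M1 marks a transcript as an NMD target for 1 of the 9, *Smg6*, against 16.1% of coding genes, and a retained-intron transcript again for *Smg6* alone, against 33.5%. A count per gene sums all of these transcripts. A shift between a productive and an NMD isoform could therefore not be told apart from another change of the count.

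**Figure D2:**
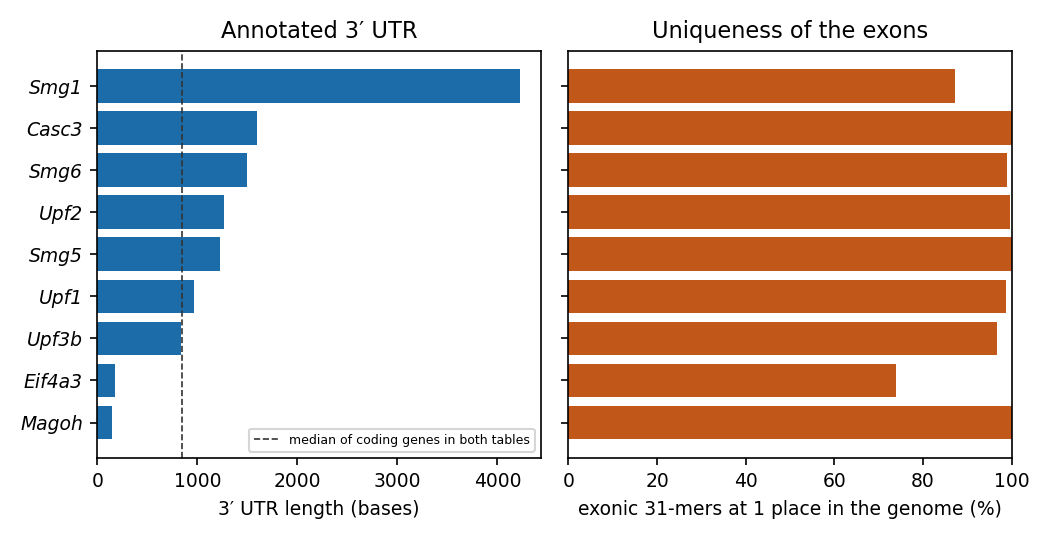
Length of the annotated 3′ UTR in bases (left, bars; dashed line, median of 843 bases over coding genes in both tables) and share of exonic 31-mers found at 1 place in the genome (right, bars, %) for the 9 genes. *Smg1* has the longest 3′ UTR at 4223 bases, *Magoh* and *Eif4a3* have 148 and 180, and *Eif4a3* has the lowest unique share at 73.9%.

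The design asks what each hairpin does to the cells, and with pooled means only the difference between the tables can be followed. The mean of each gene in the shRNA 2 table was divided by that in the shRNA 1 table, and the log2 ratio was centred on its median over the 7757 genes that reached a mean of 100 in each table, which lay at 0.068 before centring. Both tables contain control libraries, so this ratio is a diluted view of the difference between the hairpins. A change of every gene to the same extent with both hairpins leaves it at 0. The labels of control replicate 1 name both tables. Those of replicates 2 and 3 name the shRNA 1 table and, in place of the shRNA 2 table, a table of a hairpin with another number. The study describes only 2 mouse *Srrm2* hairpins, and no library here is titled with such a number. That the same 3 controls stand in both tables is taken from the titles.

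The log2 ratios of the NMD and exon-junction genes lay between -0.15 and 0.15. A log2 ratio of at least 0.2 in either direction, the fold used to call a difference, was reached by 0 of the 9 genes, against 14.4% of all genes that reached a mean of 100 in each table (1115 of 7757). Of the 9 genes, 8 passed that minimum. *Magoh*, at 77.1 and 89.7, passed only a minimum of 10, at which 21.3% of genes were called (2435 of 11451). With a background of this size, 0 of 9 does not set the genes apart from other genes. Their median log2 ratio was 0.067, where the median of all genes is 0 by construction. The ratio was above 0 for 8 of the 9, and the centring puts equal numbers of all genes on either side of 0. Fewer cells of a kind and less RNA per cell cannot be told apart in such bulk samples.

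*Upf1* (ENSMUSG00000058301.6; mm9 chromosome 8, 72855421 to 72877172, − strand) had means of 814 and 894 in the shRNA 1 and shRNA 2 tables, and a log2 ratio of 0.067. *Upf2* (ENSMUSG00000043241.8; chromosome 2, 5872515 to 5977749, + strand) had 311 and 335 and a ratio of 0.039. Both partners thus stood slightly higher in the shRNA 2 table, within the middle of the distribution over all genes, whose quartiles were -0.089 and 0.085.

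*Upf3b* (ENSMUSG00000036572.9; chromosome X, 34631673 to 34650335, − strand) had means of 391 and 370.3, and was the only 1 of the 9 with a lower mean in the shRNA 2 table. Its log2 ratio of -0.15 lay at percentile 13.5 of the genes with a mean of at least 100. Its paralogue *Upf3a* was low in both tables, with means of 45.5 and 45.7, and had a ratio of -0.059. Per kb of exon, *Upf3b* exceeded *Upf3a* in both tables, with 97.3 against 32.4 and 92.2 against 32.6.

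The kinase *Smg1* (ENSMUSG00000030655.7; chromosome 7, 125274832 to 125387151, − strand) had means of 3193 and 3512, a log2 ratio of 0.070. *Smg5* (ENSMUSG00000001415.5; chromosome 3, 88140182 to 88166259, + strand) had 521 and 552, a ratio of 0.015. *Smg6* (ENSMUSG00000038290.9; chromosome 11, 74739325 to 74977950, + strand) had 361 and 379, a ratio of 0.0029. Of these, *Smg5* and *Smg6*, which act on phosphorylated UPF1, were almost level between the tables, and the sign of *Smg6* turned to -0.0014 when the centre was taken over all genes that reached a mean of 10.

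The 3 EJC genes among the 9 had ratios above 0. *Eif4a3* (ENSMUSG00000025580.9; chromosome 11, 119149677 to 119161403, − strand) had means of 402 and 445 and a log2 ratio of 0.080. *Casc3* (ENSMUSG00000078676.3; chromosome 11, 98666219 to 98695128, + strand) had 495 and 552 and a ratio of 0.091. *Magoh* (ENSMUSG00000028609.6; chromosome 4, 107552360 to 107560029, + strand) had 77.1 and 89.7 and a ratio of 0.15, the largest of the 9. Among the 1582 genes with a mean between 50 and 100 the central 95% of ratios ran from -0.43 to 0.41, so *Magoh* lay well inside the range of genes at its level. The paralogue *Magohb* had means of 45.4 and 45.7 with a ratio of -0.056, and *Rbm8a*, the partner of both, had 142 in each table with a ratio of -0.066. Of the 5 genes of the EJC core, 3 reached a mean of 100 in each table and 0 were past the fold. The share over all genes was 14.4% at a minimum mean of 100 and 21.3% at 10. With so few genes nothing is read from this count.

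**Figure D3:**
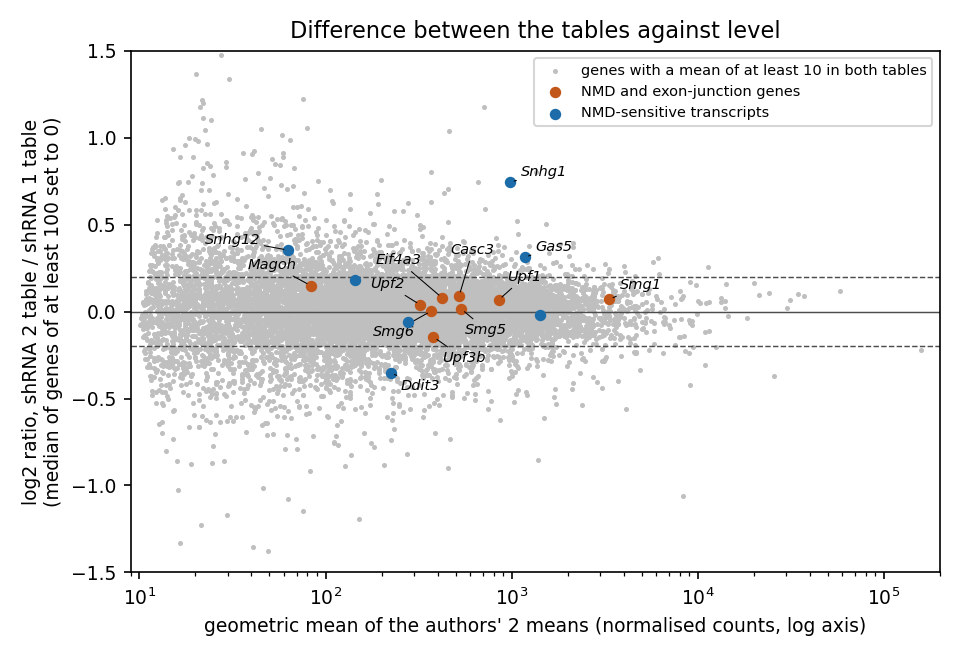
Log2 ratio of the shRNA 2 table to the shRNA 1 table (vertical axis, centred as in the text) against the geometric mean of both means (log axis). Grey points are genes that reached a mean of 10 in each table, orange points the 9 genes, blue points 7 transcripts known as NMD-sensitive, dashed lines the fold of 0.2, and 9 genes fall outside the plotted range. The 9 genes lie between -0.15 and 0.15, and *Snhg1*, *Snhg12* and *Gas5* lie above the upper dashed line.

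Other factors of the pathway were looked up in 5 lists of proteins. Of the 24 other genes, all were in both tables, 1 was past the fold upward, 1 was past it downward, and the median log2 ratio was 0.020. The share over all genes was 14.4% at a minimum mean of 100 and 21.3% at 10, and 3 of the 24 (*Upf3a*, *Magohb* and *Pym1*) were under 100. Against that background, 0 of the 10 NMD factors and 0 of the 6 genes of EJC periphery and assembly were past the fold, and with so few genes nothing is read from these counts. Within that list *Rnps1*, a splicing activator that travels with the EJC, had 500.1 and 561 with a ratio of 0.098, but only 26.4% of its exonic 31-mers lie at 1 place in the genome. *Acin1*, its partner, had 989 and 1136 with a ratio of 0.13, and *Sap18*, the third protein of that complex, had 421 and 466 with 0.081.

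Among 9 other NMD-linked factors, *Ruvbl1*, an ATPase needed for SMG1 function, was past the fold with means of 252 and 311 and a log2 ratio of 0.24. Only 35.6% of its exonic 31-mers are at 1 place. Its partner *Ruvbl2* had 333 and 367 with a ratio of 0.073. The release factor gene *Etf1* had 1953 and 1928 with -0.086, the poly(A)-binding protein gene *Pabpc1* had 8110.0 and 8246 with -0.044, and *Pnrc2*, which links UPF1 to decapping, had 440 and 476 with 0.048. In the list of decapping and 5′ to 3′ decay, *Dcp2*, the decapping enzyme, was past the fold downward with means of 409 and 360.3 and a ratio of -0.25, a call that was lost without scaling (-0.18). The exonuclease gene *Xrn1* had 508 and 515 with -0.049, and the decapping cofactor gene *Dcp1a* had 262 and 278 with 0.022.

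Transcripts that are known as NMD-sensitive were looked up as well. Of 7 such transcripts, 3 were past the fold upward and 1 downward, and their log2 ratios ran from -0.35 to 0.74 with a median of 0.18. Of these 4 calls, *Snhg12* was under a mean of 100. The share of all genes past the fold was 14.4% at a minimum mean of 100 and 21.3% at 10. The list was chosen with earlier results of these data known, so nothing is read from its count against these shares. The upward ones were the host genes of small nucleolar RNAs, whose spliced exons carry short reading frames and are degraded by NMD. *Snhg1* had a mean of 742 in the shRNA 1 table and 1302 in the shRNA 2 table, a log2 ratio of 0.74 at percentile 99.9 of genes with a mean of at least 100. *Gas5* had 1030.0 and 1340.3, a ratio of 0.31, and *Snhg12*, under the minimum of 100, had 54.3 and 72.8, a ratio of 0.35. If the same control libraries entered both tables and the scaling holds, the controls can only dilute the ratio. The mean of *Snhg1* over the shRNA 2 libraries was then at least 1.67-fold that over the shRNA 1 libraries. This bound has no error, because there was no value per library. The exons of *Snhg1*, *Gas5* and *Snhg12* share 615, 669 and 333 annotated bases with snoRNA genes on the same strand, and the part of this overlap in the values was not tested.

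The 4 protein-coding transcripts of the list had lower ratios. *Ddit3*, a stress-induced transcription factor gene, had means of 247 and 203 and was past the fold downward with a log2 ratio of -0.35. *Atf4*, whose mRNA has upstream reading frames, had 1402 and 1449 with -0.020, *Gadd45a* had 278 and 279 with -0.060, and *Gadd45b* had 131 and 156 with 0.18. The noncoding host genes and *Ddit3* thus lay on opposite sides of the fold. Whether NMD activity differed between the hairpins was not tested.

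**Figure D4:**
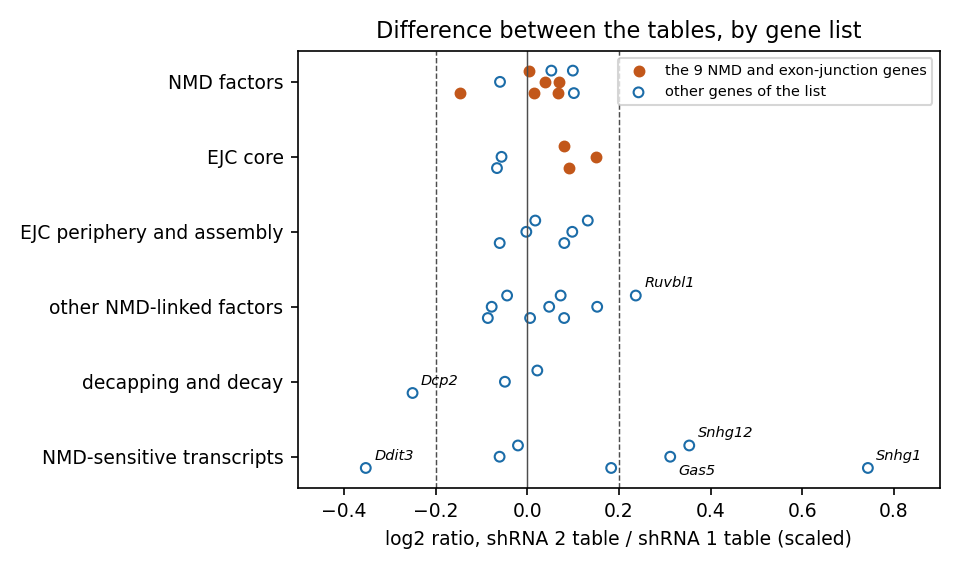
Log2 ratio of the shRNA 2 table to the shRNA 1 table (horizontal axis, scaled) for the genes of 6 lists, 1 point per gene, with the 9 NMD and exon-junction genes filled and the others open, and dashed lines at the fold of 0.2 in each direction. The points of the 3 upper lists all lie inside the dashed lines, and *Snhg1* is farthest out at 0.74.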

How the data were processed

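RNA was sequenced from 9 AML12 libraries in 3 groups of 3, assigned by their titles. The study describes poly(A)-enriched, strand-specific libraries. The authors aligned trimmed reads to mm9 (TopHat2) and retained unique pairs, which HTSeq assigned to GENCODE M1 and DESeq2 1.8.2 normalized. The values used are a signal as deposited, the authors' mean normalized count of each gene over the control libraries and those of 1 hairpin. Each deposited table has 5 further columns with the authors' own comparison (fold change, its standard error, a statistic, p-value and adjusted p-value), which were not used, so no statistic of the knockdown against control is given. Listed genes had means of at least 1.56 and 1.92.

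The log2 ratio of the tables was centred on the median of genes that reached a mean of 100 in each, and a fold of 0.2 (log2) was used to call a difference. The calculation of the ratio was tested on simulated data with planted changes well above that fold. It does not show how calls near the fold perform. Exon lengths, transcript types and coding sequences came from GENCODE M1 on NCBIM37, the assembly of mm9, which held all gene identifiers of the tables; *Smg8*, *Smg9*, *Pym1* and the marker *Adgre1* were matched by older names. Exonic 31-mers were searched on both strands of 22 chromosomes.

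The 9 genes and the lists were chosen with earlier results of these data known. Named genes are the 9, *Srrm2*, other list genes past the fold at a mean of at least 100 and up to 3 genes per list with the highest mean per kb. A gene that this rule names is not reported here. *Upf3a*, *Magohb*, *Rbm8a*, *Pym1*, *Ruvbl2*, *Snhg12*, *Gadd45a*, *Gadd45b* and the cell type markers were named for their role after their values were seen. Alternatives were other centres, folds, minimum means and lengths. Python 3.11.15, numpy 2.4.6, pandas 2.3.3 and matplotlib 3.10.9 were used.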

Additional observations from a re-analysis of the deposited data

How the results depend on the processing

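The count of 0 of the 9 genes past the fold was the same with the centre taken over genes that reached a mean of 10 or from the summed means. Without scaling it was 1, *Magoh* with a log2 ratio of 0.22, and the median of the 9 ratios moved from 0.067 to 0.135. With a fold of 0.1, 2 of the 9 (*Magoh* and *Upf3b*) and 10 other list genes were past it. The share of genes with a mean of at least 100 was then 43.7% (3389), so 2 of 9 does not set the genes apart. With a fold of 0.5, 1 list gene (*Snhg1*) was past it, against 0.915% of those genes (71). At the fold of 0.2, 2435 genes were past it with a minimum mean of 10 and 3558 without a minimum. Without scaling, *Gadd45b* was past the fold at 0.25 and *Dcp2* was no longer past it at -0.18. Per kb of the longest coding transcript, *Upf3b* had 167 in place of 97.3.

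Leaving out replicates was not run, since the values used are means over the libraries. No paired analysis was possible because the tables hold no value per library in the columns used. Without an error, a small ratio does not show that the hairpins act alike on these genes, and low genes such as *Magoh* are the least precise.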
